A study of Rattus norvegicus with 7 samples.

Results

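Ensembl predicts many miRNA genes of the rat that carry no miRNA name and are listed by the genomic clone on which they lie, and the levels of 183 such loci were followed in the retina over the first postnatal weeks. A locus was taken when its biotype was miRNA, its symbol began with AABR or with AC and digits, and the interval covered by reads was at least 50 bases long. The deposited table held 5491 features, of which 571 were miRNA features, 248 of these had a clone name and 65 of the 248 were shorter than the limit. The rule also left out an interval of chromosome 6 with 47 miRNA features, none of which was clone-named (0 features). The 183 loci belonged to 182 genes, because AC135310.2 was listed with 2 covered intervals. Just under the length limit, at 49 bases, AABR07058678.1 had a mean of 3955 FPKM and AABR07000404.1 a mean of 9829 FPKM. Just inside it, at 50 bases, AABR07070603.1 had a mean of 1476 FPKM.

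Retinas came from untreated Wistar WU rats at 7 ages, P1, P3 and P5, then P7 and P10, and last P15 and P21, with the day of birth as P0. At each age 3 retinal RNA samples were pooled and small RNA of the pool was sequenced 2 times by Ion Torrent, and each age has 1 library value. No spread between animals could therefore be calculated, no test between ages was possible, and all differences below are differences between pools. The values are FPKM, mapped fragments scaled for the length of the feature and the size of the library, and they were compared as differences of log2(FPKM + 1).

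A miRNA is cut from a hairpin precursor, first by Drosha in the nucleus and then by Dicer, and the mature strand guides Argonaute proteins to messenger RNAs through its seed. Ensembl predicts miRNA genes from similarity to known precursors and from the hairpin a sequence can fold into, so a predicted gene need not give a mature miRNA. Other small RNAs, such as small nucleolar RNAs, which guide the modification of ribosomal RNA, and the RNA of the signal recognition particle, which brings ribosomes to the endoplasmic reticulum, also fold into hairpins. In the postnatal rat retina the last rods, bipolar cells and Müller glia are born, and synapses then form.

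The symbols and Ensembl identifiers of 0 of the 183 loci were found in the RefSeq list of the GRCr8 assembly, so sequences are shown for named miRNAs that neighbour a clone-named locus described below, and for Mir206, which shares its seed with Mir1b. They are mature sequences from RefSeq (GRCr8), written 5′ to 3′ with the seed, bases 2 to 8, in capitals, and they are grouped by seed. The first 4 share a seed and lie in the neighbourhoods of AABR07041787.1 on chromosome X and AABR07035541.1 on chromosome 12, as do the 3 after them. RefSeq lists the mature strand of Mir106a as rno-miR-17-5p.
Mir106a: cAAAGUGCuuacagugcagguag
Mir20b: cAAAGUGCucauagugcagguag
Mir93: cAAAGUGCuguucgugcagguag
Mir106b: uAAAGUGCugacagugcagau
Mir25: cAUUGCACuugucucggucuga
Mir92a2: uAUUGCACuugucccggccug
Mir363: aAUUGCACgguauccaucugu
Mir19b2: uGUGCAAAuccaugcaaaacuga
Mir101a: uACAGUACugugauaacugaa
Mir1b: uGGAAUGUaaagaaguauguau
Mir206: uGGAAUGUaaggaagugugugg

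The retina label was checked against marker miRNAs. Of the photoreceptor list, 2 of 3 loci were found under their symbols, and Mir183 was at 103203 FPKM at P1, 733716 FPKM at P10 and 448779 FPKM at P21. All 3 loci of neuronal mir-124 were found, and Mir124-1 was at 391668 FPKM at P1, the first in rank among the miRNA features by mean FPKM. Mir211, which the pigment epithelium and the retina express, was at 2090.4 FPKM at P1 and at 233594 FPKM at P21. The list of blood miRNAs, with 2 of 3 loci found, summed to between 949.6 FPKM at P3 and 4879 FPKM at P1. Liver Mir122 was not listed. The muscle list had 3 of 5 loci, without Mir1 and Mir133a, and its sum was 7439 FPKM at P1, 165251 FPKM at P3, 100176 FPKM at P5, 4840.1 FPKM at P7, 11665 FPKM at P10, 7905 FPKM at P15 and 5702 FPKM at P21. Mir206 was the most abundant miRNA of that list by mean FPKM and at every age but P21, when Mir1b was higher. The photoreceptor and neuronal markers were thus present at every age and higher after P1, and the muscle list stood out at P3 and P5.

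Depth was read from the low FPKM values, because a single alignment adds a fixed amount to a feature of known length. At P1, 99.98% of 4931 low values came out as whole numbers of alignments. In the later libraries the low values were sums of 2 step sizes, and at P21 of 4. In order of age, the libraries held 297685, 498424, 414877, 595996, 454178, 451160 and 1362401 estimated alignments. After P1 these numbers assume that each step contributed equal signal, without which the total could lie between 127523 and 774798 at P15. The clone-named loci received 8903, 7991, 8132, 13043, 9072, 8207 and 23031 of these. The set is thin, with a median of 14.6 alignments per library and locus, compared with 59.2 for the other 388 miRNA features. With 3 alignments or fewer there were 35, 40, 34, 14, 46, 51 and 7 loci in order of age, and 159 of the 183 loci were above 0 in every library. A mean of at least 20 alignments was reached by 74 loci. The 95% counting intervals below come from these estimates. They hold neither animal variation nor the fact that PCR copies are not independent molecules.

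The clone-named miRNAs made up a small share of the miRNA signal, which was smaller from P10 on than before. Their summed level was 785098 FPKM at P1, 679826 FPKM at P3, 671743 FPKM at P5, 653070 FPKM at P7, 699255 FPKM at P10, 567573 FPKM at P15 and 657673 FPKM at P21. As a share of the FPKM of all miRNA features this was 4.17%, 4.27%, 3.45%, 3.53%, 2.85%, 2.73% and 2.26% in order of age. In estimated alignments the share was 5.00% at P1 (95% Wilson interval from 4.90% to 5.10%) and 2.34% at P21 (from 2.31% to 2.37%). The sum itself changed less than the share, with a log2 difference of -0.26 between P21 and P1 (95% counting interval from -0.30 to -0.21). The FPKM of all miRNA features, by which the share is divided, was 1.88e+07 at P1 and 2.90e+07 at P21. Within it the 3 loci of mir-124 summed to 1020254 FPKM at P1 and 11820000 FPKM at P21. The smaller share is thus not a fall of the set alone, and values scaled to the miRNA total carry the same rise. Scaled to the miRNA total of each library the log2 difference of the sum was -0.88, and without the highest locus it was -0.44. In a bulk sample, fewer cells of a type and less RNA per cell cannot be told apart.

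**Figure D1:**
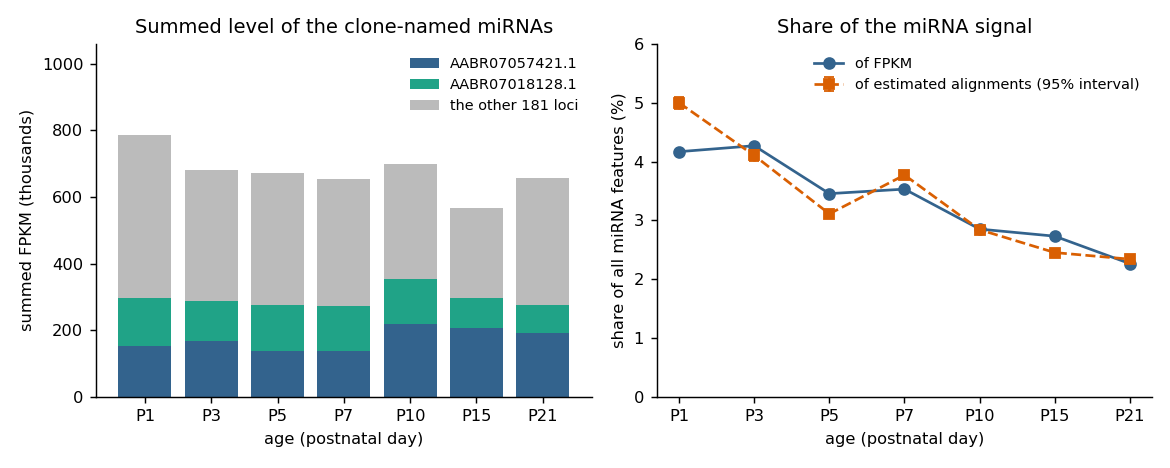
Left, summed FPKM of the 183 clone-named loci at each age (bars from 0), with the 2 highest loci marked; right, their share of the FPKM (circles) and of the estimated alignments (squares, 95% Wilson intervals, smaller than the marks) of all miRNA features. The share of FPKM is 4.17% at P1 and 2.26% at P21, while the sum is 785098 FPKM and 657673 FPKM.

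A pair of loci carried a large part of the sum. AABR07057421.1 (ENSRNOG00000047216.1, chromosome 7, forward strand, 70287313 to 70287396 in Rnor_6.0) had 151196 FPKM at P1, 169007 FPKM at P3, 136502 FPKM at P5, 137359 FPKM at P7, 217342 FPKM at P10, 205190 FPKM at P15 and 190574 FPKM at P21. AABR07018128.1 (ENSRNOG00000051849.1, chromosome 15, reverse strand, 41961169 to 41961263) had 145298 FPKM at P1, 118213 FPKM at P3, 138402 FPKM at P5, 136260 FPKM at P7, 135989 FPKM at P10, 92572 FPKM at P15 and 83949 FPKM at P21. The first was highest at P10 and lowest at P5, and the second was highest at P1 and lowest at P21. They ranked 24 and 30 among all miRNA features by mean FPKM, and together they held between 37.8% of the summed FPKM at P1 and 52.5% at P15. From P1 to P21 the log2 difference was 0.33 for AABR07057421.1 (95% counting interval from 0.26 to 0.41), which turned to -0.29 when libraries were scaled to their miRNA total. For AABR07018128.1 it was -0.79 (from -0.89 to -0.69), and -1.42 with that scaling. AABR07029804.1 (chromosome 10, reverse strand, 52244121 to 52244220) was next in rank and had between 27400.1 and 28771 FPKM up to P5 and between 12036 and 17117 FPKM from P7 on.

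Below these, the levels of the set spread over orders of magnitude. A mean of at least 10000 FPKM was reached by 9 loci. The median of the means was 852 FPKM, compared with 6419.9 FPKM for the other miRNA features, and the lowest was 42.8 FPKM. Among the 50 highest miRNA features 2 were clone-named, and among the 100 highest 3.

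Of the 10 loci with the most estimated alignments, 7 had their lowest level at P7 and were higher again at P10. With median-of-ratios scaling 4 of the 7 were lowest at P7, and AABR07027810.2, AABR07027754.1 and AABR07071431.1 were lowest at P5. A lowest level at P7 was found in 10.6% of all features, in 16.2% of the members with at least 20 alignments and in 31.5% of the other miRNA features of that depth. AABR07027810.2 (chromosome 17, forward strand, 44669467 to 44669554) had 23190.5 FPKM at P1, 19007 FPKM at P3, 10965 FPKM at P5, 8707 FPKM at P7, 23527 FPKM at P10, 18885 FPKM at P15 and 24475 FPKM at P21. AABR07027810.3 lies 4963 bases away on the other strand and had 18033 FPKM at P1, 12941 FPKM at P3, 11772 FPKM at P5, 7412 FPKM at P7, 18356 FPKM at P10, 16219 FPKM at P15 and 18394 FPKM at P21. The same course, down to P7 and back at P10, was seen at both loci. AABR07027754.1 (chromosome 17, reverse strand, 43835392 to 43835494) went from 17296 FPKM at P1 through 9103 FPKM at P7 to 16882 FPKM at P10. AC129753.2, on chromosome 10, went from 16786 FPKM at P1 through 7297 FPKM at P7 to 17602 FPKM at P10, and AABR07071431.1, on chromosome 8, from 18113 FPKM through 4943 FPKM to 27541 FPKM. These loci were taken for their low level at P7, and they lie on several chromosomes. On chromosome 5, AABR07047212.1 had 12053 FPKM at P1, 3781 FPKM at P7 and 10982 FPKM at P10, and AABR07047194.2, of the same annotated length and less than 1 Mb away, had 11091 FPKM, 4191 FPKM and 11413 FPKM. The ratio of P10 to P7 in these 7 loci lay between 1.85 for AABR07027754.1 and 5.57 for AABR07071431.1, and the log2 difference was 1.43 for AABR07027810.2 (95% counting interval from 1.15 to 1.72). Their sum was 116562 FPKM at P1, 88717 FPKM at P3, 62555 FPKM at P5, 45434 FPKM at P7, 126304 FPKM at P10, 98859.8 FPKM at P15 and 115145 FPKM at P21. Between P1 and P21 the log2 differences of 6 of them had intervals that included 0, and that of AABR07071431.1 was -0.35 (from -0.59 to -0.11). Scaled to the miRNA total, all 7 were lower at P21 than at P1, by between 0.55 and 0.97 on the log2 scale. Apart from AABR07071431.1, the loci had close numbers of estimated alignments. These lay between 291 and 326 at P1, 154 and 209 at P5, 179 and 280 at P7, 307 and 346 at P10, and 820 and 892 at P21. Loci of similar sequence can share reads, and how such reads were divided is not given in the sources used here. Whether these loci share reads was not tested, so they may not be separate cases of a low level at P7.

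**Figure D2:**
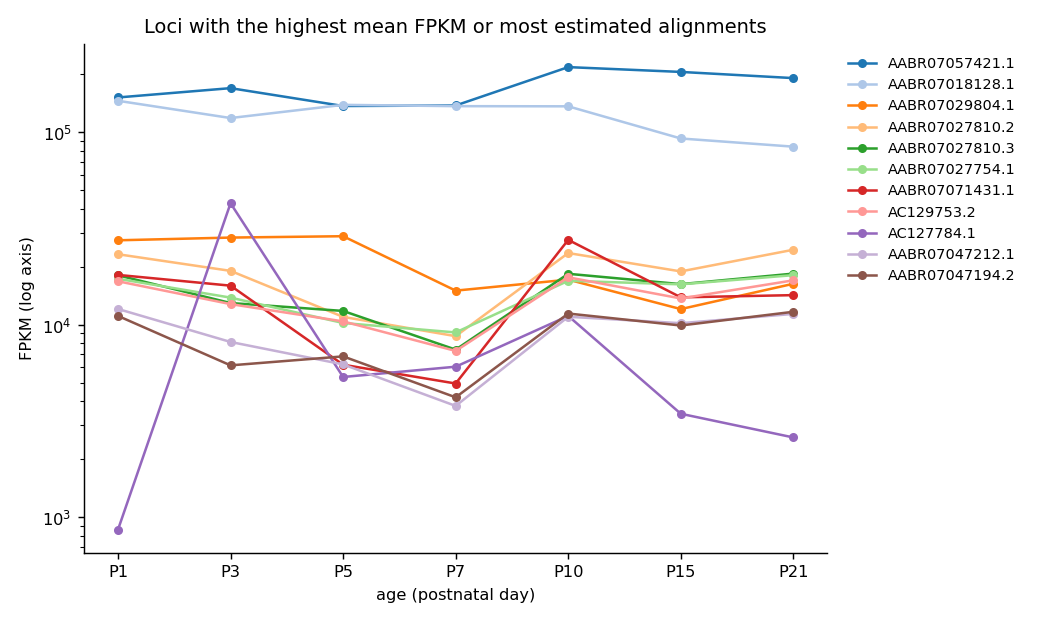
FPKM (log axis) at each age of the 11 loci that were among the 10 highest by mean FPKM or among the 10 highest by estimated alignments, 1 library value per age. In FPKM as deposited 7 of the loci are lowest at P7 (4 with median-of-ratios scaling), and AC127784.1 is highest at P3 with 42680 FPKM.

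The members with the largest rises and falls were taken among the 74 loci with at least 20 alignments. Of these, 25 were higher than at P1 at each of P10, P15 and P21 (background over 1974 features of that depth, 31.4%), and 32 were lower at each of them (background 44%). These shares were near the background and are no result about the set. AC129244.1 (chromosome 15, reverse strand, 23733282 to 23733380) had 247 FPKM at P1, 1275 FPKM at P3, 2699.9 FPKM at P5, 3569.9 FPKM at P7, 8789.8 FPKM at P10, 10873 FPKM at P15 and 16105 FPKM at P21. Its level was higher at each age than at the one before, and the log2 difference from P1 to P21 was 6.02 (95% counting interval from 4.15 to 9.07) with 2 alignments at P1. AABR07030200.1 (chromosome 10, forward strand, 75687078 to 75687167) had 426 FPKM at P1, 756 FPKM at P3, 3225 FPKM at P5, 4330.4 FPKM at P7, 7269.5 FPKM at P10, 10228 FPKM at P15 and 13285 FPKM at P21. Its level, too, was higher at each age than at the one before, with a log2 difference of 4.96 (from 3.59 to 6.85). The other 3 large rises were those of AABR07005004.1, AABR07063621.1 and AC096430.1, with log2 differences of 5.91 (from 3.40 to 11.22), 4.71 (from 2.18 to 10.04) and 4.50 (from 2.61 to 7.57). They had 1, 1 and 2 alignments at P1, so their size is poorly known.

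On the falling side, AC124839.1 (chromosome 19, reverse strand, 39300510 to 39300588) had 13085 FPKM at P1, 4202 FPKM at P3, 6103 FPKM at P5, 5616 FPKM at P7, 2278 FPKM at P10, 1142 FPKM at P15 and 451 FPKM at P21. The log2 difference from P1 to P21 was -4.86 (95% counting interval from -6.75 to -3.44). AABR07031182.1 (chromosome 18, reverse strand, 3318132 to 3318209) had 9144 FPKM at P1, 5805 FPKM at P3, 9244 FPKM at P5, 8438 FPKM at P7, 4559.5 FPKM at P10, 582 FPKM at P15 and 1239 FPKM at P21. The first of these was lower after P1 at every age, and the second was lower at P3 than at P1, P5 and P7 and lowest at P15 and P21, with a log2 difference of -2.88 (from -3.63 to -2.19). AABR07005664.1, AABR07026616.1 and AABR07017259.1 differed by -3.66 (from -4.80 to -2.68), -2.98 (from -3.94 to -2.11) and -2.89 (from -4.05 to -1.87). For every locus the scalings move P1 against P21 by 0.63 (miRNA total) or -0.077 (median of ratios) on the log2 scale. These 10 were chosen for larger differences, so their direction could not change, and nothing is drawn from it.

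**Figure D3:**
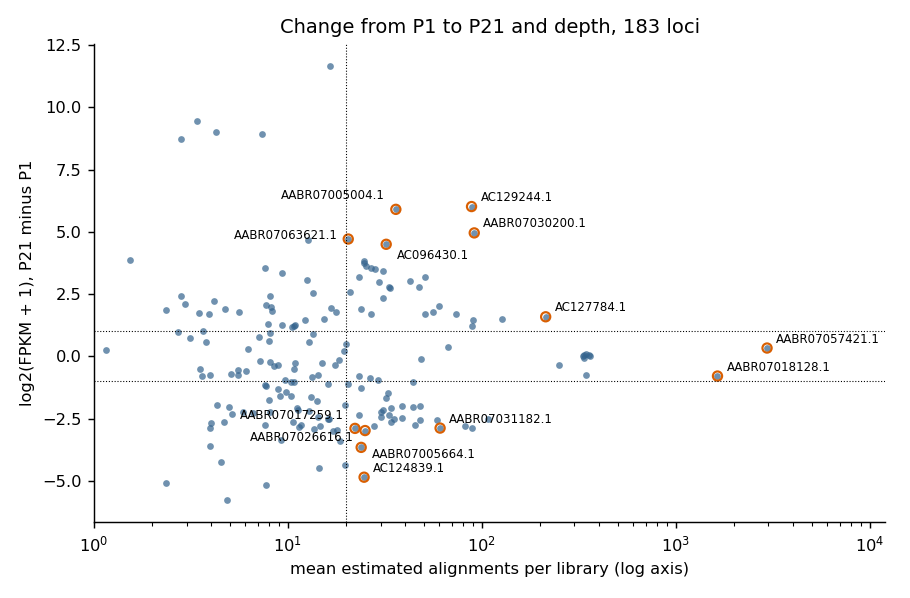
Difference of log2(FPKM + 1) between P21 and P1 of each of the 183 clone-named loci against its mean number of estimated alignments (log axis), 1 point per locus, with named loci ringed and dotted lines at a 2-fold difference and at 20 alignments. The spread narrows with depth, and the points at the top left are loci listed at 0 at P1.

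More loci were 2-fold lower than 2-fold higher at P21, as was the case over all features, so that this is no result about the set. Compared with P1, 63 of 183 loci were at least 2-fold higher at P21, or 34.4% (background over all features, 26.4%), and 74 were at least 2-fold lower, or 40.4% (background 32.4%). Among the other miRNA features the shares were 30.2% and 29.4%. When libraries were scaled to their miRNA total the counts were 51 and 90. Among loci with at least 20 alignments the excess of lower loci was not seen, as 30 were 2-fold higher (40.5%) and 29 lower (39.2%). Of the other miRNA features of that depth 33.3% were higher and 26.7% lower. At P3, 31 loci were 2-fold higher than at P1 (16.9%, background 20.1%) and 55 were lower (30.1%, background 27.2%), and at P5 39 were higher than at P3 (21.3%, background 17.6%) and 21 lower (11.5%, background 18%). At P7, 30 were higher than at P5 (16.4%, background 19.6%) and 19 lower (10.4%, background 12.1%). The step from P7 to P10 had 32 higher loci (17.5%, background 16.2%) and 70 lower ones (38.3%, background 29.8%), whereas of the other miRNA features 29.9% were higher and 13.7% lower. From P10 to P15, 35 were higher (19.1%, background 18.7%) and 62 lower (33.9%, background 26.5%), and from P15 to P21, 75 were higher (41.0%, background 24.7%) and 22 lower (12.0%, background 14.7%). The share of higher loci from P15 to P21 was the only one more than 10 points from the background over all features. Of the other miRNA features 28.4% were higher, and with at least 20 alignments the shares were 35.1% and 21.9%. At P15, 51 loci had 3 alignments or fewer, and at P21 7. The count was not repeated with other scalings, which raise P15 against P21 by 0.48 (miRNA total) or 0.24 (median of ratios) on the log2 scale.

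In FPKM as deposited, against P21, the median log2 difference of the clone-named loci was 0.36 at P1 (95% binomial interval of the median from -0.078 to 0.82), -0.15 at P3 (-0.48 to 0.43), 0.12 at P5 (-0.39 to 0.52), a median of -0.12 at P7 (-0.41 to 0.74), -0.030 at P10 (-0.42 to 0.20) and a median of -0.57 at P15 (-0.92 to -0.27). For the other miRNA features it was -0.049, 0.0036, -0.044, -0.53, 0.025 and -0.33 at these ages, and for all features 0.15, 0.095, 0.087, 0.21, -0.020 and -0.17. The P15 library was thus the low point of the set, and P7 was not, unlike for the other miRNA features. P15 stayed the lowest median under every scaling, filter and membership limit tried, from -0.61 without the length limit to -0.083 with scaling to the miRNA total. The distance between P15 and P7 depended on these choices, since among loci with at least 20 alignments the medians were -0.46 at P15 and -0.42 at P7, and P7 became 0.53 with scaling to the miRNA total and 0.13 with median-of-ratios scaling. The earlier ages moved as well, to 0.98 at P1, 0.72 at P3 and 0.70 at P5 with scaling to the miRNA total. Among loci with at least 20 alignments P1 became 0.034, P3 0.26 and P5 -0.089. P1 was 0.75 without the length limit, and P5 was -0.015 with median-of-ratios scaling. By the age of the highest level, 51 loci (27.9%) peaked at P1, 43 (23.5%) at P7 and 53 (29.0%) at P21, and the 4 other ages had 10, 12, 7 and 7 peaks. Of the other miRNA features 19.3% peaked at P1, 10.3% at P7, 14.9% at P10 and 30.2% at P21. Of all features 24.7% peaked at P1, 21.3% at P7 and 16.2% at P21. At P3, P5, P10 and P15 the set had 5.46%, 6.56%, 3.83% and 3.83% of its peaks. All features had 11.5%, 6.68%, 7.12% and 12.5% there. The peaks at P1, P5 and P7 were thus near the share over all features. Those at P21 were above that share, as were those of the other miRNA features, and those at P3, P10 and P15 were below it. With scaling to the miRNA total 32 loci, in place of 53, peaked at P21. The lowest level fell on P1 for 35 loci, on P3 for 20, on P5 for 11, on P7 for 23 (12.6%), on P10 for 23 (12.6%), on P15 for 45 (24.6%) and on P21 for 26. Of the other miRNA features 25% were lowest at P7 and 2.84% at P10, and of all features 10.6% were lowest at P7, 12.3% at P10 and 22.3% at P15, so that the set was near all features here too. A highest or lowest age can rest on a few alignments. With at least 20 of them 17 of 74 loci (23.0%) peaked at P1, 14 (18.9%) at P7 and 29 (39.2%) at P21. Of the other miRNA features of that depth 19.3% peaked at P1, 4.81% at P7 and 34.4% at P21.

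**Figure D4:**
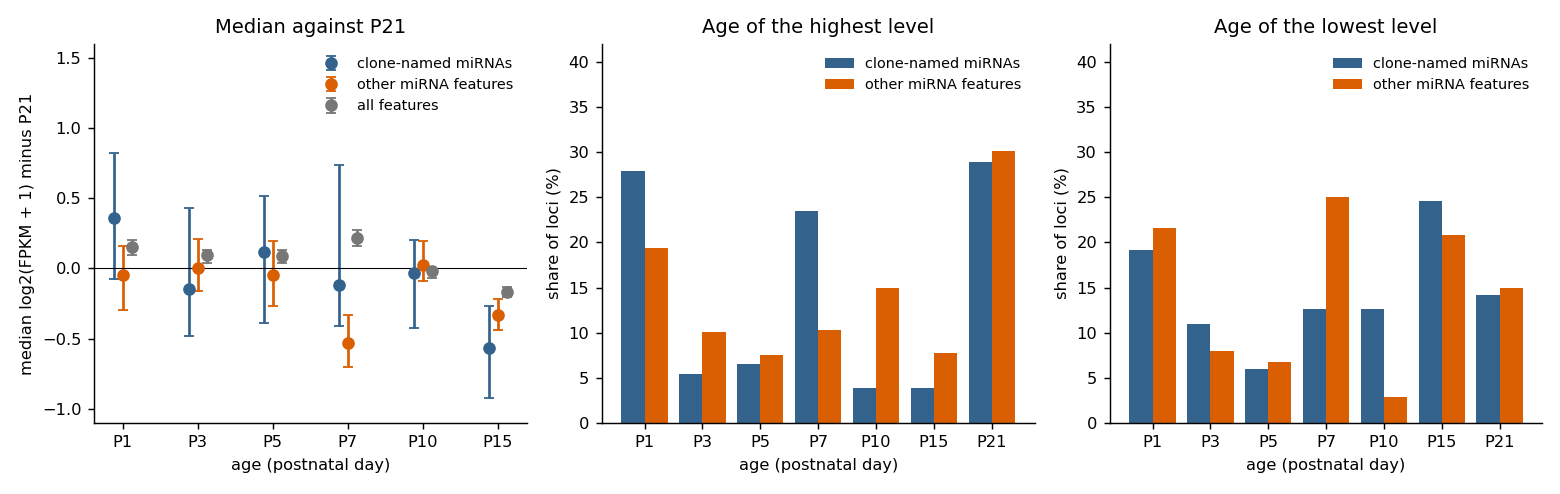
Left, median log2(FPKM + 1) minus P21 with 95% binomial intervals of the median over features for the 183 clone-named loci, the other 388 miRNA features and all 5491 features; middle and right, share of loci with their highest and lowest level at each age (bars from 0). At P7 the median is -0.12 for the clone-named loci and -0.53 for the other miRNA features.

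Position set some of these loci apart. The loci named from here on for their position were chosen after their values were seen, apart from AABR07041787.1, AABR07035541.1 and AABR07049386.1. The members lay on 20 chromosomes and 1 unplaced scaffold, 98 on the forward and 85 on the reverse strand, and chromosome 17 held the most, with 19. Of the 183 loci 13 overlapped another small RNA gene on the same strand, 8 others lay within 10 kb of a miRNA feature with a miRNA name, 11 others lay within 10 kb of another clone-named miRNA feature, and 151 had none of these. The 13 overlaps were with 5 small nucleolar RNA genes, 7 with genes of signal recognition particle RNA and 1 with a gene of 5S ribosomal RNA. How reads of overlapping genes on a strand were divided is not given in the sources, so their levels may not be independent. One further locus, AABR07039202.1, lay within Taf1 on the opposite strand.

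The clearest overlap was AC127784.1 (ENSRNOG00000059190.1, chromosome 7, reverse strand, 121302203 to 121302327) which contains SNORD43 from 121302236 to 121302299. AC127784.1 had 861 FPKM at P1, 42680 FPKM at P3 (42679.9 before rounding), 5344 FPKM at P5, 6043 FPKM at P7, 11093 FPKM at P10, 3443 FPKM at P15 and 2593 FPKM at P21. SNORD43 had 2040.1 FPKM at P1, 114987 FPKM at P3, 12839 FPKM at P5, 15039 FPKM at P7, 28531 FPKM at P10, 7289 FPKM at P15 and 6612 FPKM at P21. Both were lowest at P1 and highest at P3, with log2 differences from P1 to P3 of 5.63 (95% counting interval from 4.92 to 6.45) and 5.82 (from 5.06 to 6.70). Small nucleolar RNAs as a class held 2.05%, 34.3%, 9.06%, 9.39%, 9.29%, 4.68% and 4.50% of the estimated alignments in order of age. The part of that class in the P3 peak was not tested. AABR07005004.1, one of the large rises above, overlaps SNORA3, which had 275 FPKM at P1 and 4691 FPKM at P21, the age of the highest level of both. AC120949.1 overlaps SNORA81 and was highest at P21, with 2401 FPKM, as was SNORA81, with 1478 FPKM. AC112440.2 overlaps SNORD20 and was highest at P3, with 1708 FPKM, as was SNORD20, with 3583 FPKM. In 4 of the 5 pairs the clone-named locus and the small nucleolar RNA were thus highest at the same age, the exception being AABR07005004.2. As reads may be counted at both genes of a pair, nothing is drawn from this number. Of the other 8 overlaps, with signal recognition particle RNA and 5S ribosomal RNA, 2 were listed with the same highest age, among them AABR07064716.2 with Rn7sl1. The listed level of Rn7sl1 is not that of the whole gene, as given below, so nothing is drawn from this count.

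Of the 7 loci in genes of signal recognition particle RNA, 4 formed pairs within a gene. AABR07064716.2 ends at base 91457210 of chromosome 6, next to the end of Rn7sl1 at 91457207, and AABR07064716.3 lies 12 bases upstream of it in the same gene. AABR07029907.2 and AABR07029907.1 are spaced by 13 bases in the same way on chromosome 10. AABR07064716.2 had 3229 FPKM at P1, 6038 FPKM at P3, 5733 FPKM at P5, 6876 FPKM at P7, 5441 FPKM at P10, 3979 FPKM at P15 and 8814 FPKM at P21, while AABR07064716.3 had 1532 FPKM, 1104 FPKM, 900.3 FPKM, 2149 FPKM, 437 FPKM, 65.3 FPKM and 148 FPKM. The locus at the 3′ end was thus higher at P21 than at P1, and the upstream one lower. The same was seen on chromosome 10, where AABR07029907.2 went from 2189.8 FPKM at P1 to 7071 FPKM at P21 and AABR07029907.1 from 2725 FPKM to 788 FPKM. The log2 differences from P1 to P21 of the 3 loci at the 3′ end, AABR07064724.1 being the other one, lay between 1.23 and 1.69, and those of the 4 upstream loci, with AABR07072283.1 and AABR07052780.2, between -3.36 and -1.79. The feature listed as Rn7sl1 had 153 estimated alignments at P21, fewer than the 249 of AABR07064716.2 within it. Its level is thus not that of the whole gene. Apart from the count of shared highest ages above, no host gene level is compared for these loci. In both pairs, adjacent loci within an RNA gene differed in direction. Upstream of AABR07064724.1 lies AABR07064724.2, which the length limit leaves out and whose log2 difference was -0.75 (from -3.44 to 2.07).

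Among the loci beside a named miRNA, AABR07054963.1 (ENSRNOG00000061850.1, chromosome 3, forward strand, 175779553 to 175779655) lies 9753 bases from Mir1b, a miRNA of skeletal and heart muscle. It had 766 FPKM at P1, 24116 FPKM at P3, 10573 FPKM at P5, 605 FPKM at P7, 1069 FPKM at P10, 1441 FPKM at P15 and 2477 FPKM at P21. Mir1b had 2715 FPKM at P1, 12650.4 FPKM at P3, 14500.3 FPKM at P5, 715 FPKM at P7, 1923 FPKM at P10, 854 FPKM at P15 and 2769 FPKM at P21. Both were high at P3 and P5, as were Mir206 (130765 and 72154 FPKM) and Mir133b (21836 and 13522 FPKM), which complete the muscle list found in the table. From P1 to P3 the log2 difference of AABR07054963.1 was 4.97 (95% counting interval from 3.82 to 6.44). The part of muscle RNA in this was not tested.

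AABR07041787.1 (ENSRNOG00000041292.2, chromosome X, reverse strand, 140117709 to 140117817) lies inside a miRNA cluster, 74 bases from Mir106a and 120 bases from Mir20b, with Mir19b2, Mir92a2 and Mir363 at 235, 369 and 525 bases. It had 6362 FPKM at P1, 3959 FPKM at P3, 4596 FPKM at P5, 3026 FPKM at P7, 2178 FPKM at P10, 901 FPKM at P15 and 1085 FPKM at P21, a log2 difference from P1 to P21 of -2.55 (95% counting interval from -3.23 to -1.91). Mir106a went from 25449 FPKM at P1 to 3643 FPKM at P15 and 6182 FPKM at P21, Mir19b2 from 920699 FPKM at P1 to 326989 FPKM at P21, and Mir363 from 6025 FPKM to 2302 FPKM. The locus and these 3 neighbours were lower at P21 than at P1. The log2 differences of Mir92a2, at -0.87 (from -2.24 to 0.53), and of Mir20b, at 0.22 (from -0.51 to 0.99), had intervals that included 0. AABR07035541.1 (chromosome 12, forward strand, 19303400 to 19303474) lies 3866 bases from Mir25, 4069 bases from Mir93 and 4278 bases from Mir106b, which are on the reverse strand. It had 4663 FPKM at P1, 1611.5 FPKM at P3, 3500.4 FPKM at P5, 3173 FPKM at P7, 1088 FPKM at P10, 74.5 FPKM at P15 and 596 FPKM at P21, while Mir106b went from 526107 FPKM at P1 to 162014 FPKM at P15 and 126621 FPKM at P21. Mir93 went from 50251 FPKM at P1 to 7393 FPKM at P15 and 10490.5 FPKM at P21, and Mir25 from 10386 FPKM at P1 through 4756 FPKM at P7 and 8704 FPKM at P10 to 4747 FPKM at P21. The locus and all 3 neighbours were lower at P21 than at P1, and Mir25 differed in being higher at P10 than at P7.

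AABR07049386.1 (chromosome 5, reverse strand, 120176245 to 120176347) lies 7730.0 bases from Mir101a on the same strand. It had 213 FPKM at P1, 638 FPKM at P3, 629 FPKM at P5, 568 FPKM at P7, 2007 FPKM at P10, 1299 FPKM at P15 and 1441 FPKM at P21, and Mir101a had 334045 FPKM at P1, 656192 FPKM at P10 and 786188 FPKM at P21. Both were higher from P10 on than before. AABR07014756.2, on chromosome 14, was at 834 FPKM at P1, 729 FPKM at P3, 782 FPKM at P5, 857 FPKM at P7, 1786 FPKM at P10, 5499.9 FPKM at P15 and 7639.6 FPKM at P21, so that its level was steady to P7 and higher at each later age. It lies 4303 bases from a feature named Mir193b in the deposited table, a gene that RefSeq places on chromosome 10, so the name of that neighbour is uncertain.

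**Figure D5:**
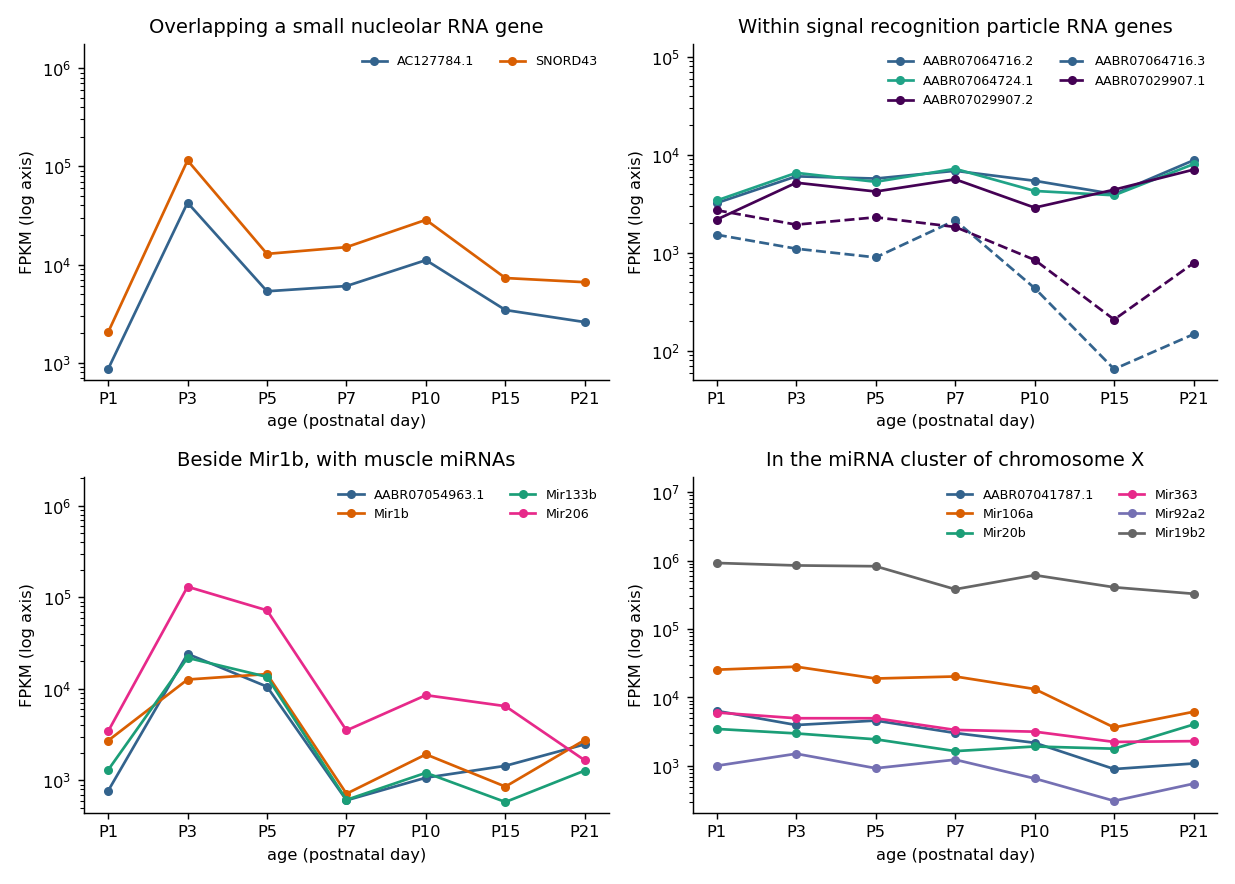
FPKM (log axes) at each age of clone-named loci with the genes they overlap or neighbour, 1 library value per age: AC127784.1 and SNORD43, loci within genes of signal recognition particle RNA (solid, at the 3′ end; dashed, upstream), AABR07054963.1 with the muscle miRNAs, and AABR07041787.1 with its cluster on chromosome X. AC127784.1 and SNORD43, which overlap and may share reads, are both highest at P3 with 42680 and 114987 FPKM.

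Short predicted genes recurred on chromosomes 6 and 14. The 6 members with an annotated length of 57 bases were AABR07063425.1, AABR07063425.2 and AABR07063462.1 on chromosome 6, between bases 30640660 and 31049172, and AABR07015056.1, AABR07015067.1 and AABR07015081.1 on chromosome 14, between 46525889 and 46655398. Their levels lay between 7908 and 15063 FPKM at P1, 4492 and 7298.2 FPKM at P3, 8106 and 11073 FPKM at P5, 4682.5 and 8113 FPKM at P7, 2222 and 5259.6 FPKM at P10, 681 and 2917 FPKM at P15, and 1623 and 3089 FPKM at P21. All 6 were at least 2-fold lower at P21 than at P1, with log2 differences between -2.76 and -2.01, and 5 of the 6 were lowest at P15. Over all features 32.4% were at least 2-fold lower and 22.3% were lowest at P15, and the group was chosen after its values were seen. Beside some of them lie clone-named genes of 49 bases, such as AABR07015080.1, 721 bases from AABR07015081.1, and AABR07015055.2, 718 bases from AABR07015056.1, which the length limit leaves out. The 8 clone-named features of that length were also lower at P21, with log2 differences between -5.26 and -2.70. These short genes had like courses on both chromosomes, and reads shared between copies cannot be told apart. On chromosome 17, 8 loci between 43777432 and 44758842, among them AABR07027754.1 and AABR07027810.2, summed to 60990.1 FPKM at P1, 49816 FPKM at P3, 37984 FPKM at P5, 30045 FPKM at P7, 63673 FPKM at P10, 55084 FPKM at P15 and 66381 FPKM at P21. A second group of 5 loci between 71782388 and 72061804 summed to 9162 FPKM at P1, 1434 FPKM at P5 and 3043 FPKM at P21, and none of the 5 reached 20 alignments (0 loci). On chromosome 10, AC134024.1 had 11754 FPKM at P1, 6709 FPKM at P3, 9731 FPKM at P5, 14736 FPKM at P7, 5176 FPKM at P10, 3773 FPKM at P15 and 1678 FPKM at P21, so that its peak was at P7, as for 42 other loci.

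The covered intervals were long for mature miRNAs. Their median was 83 bases in genes of a median length of 98 bases, compared with 77 and 88 bases for the other miRNA features, and 86 of the 183 loci were covered over at least 90% of the annotated gene. In 28 loci the interval ran past the annotated end of the gene. The length limit of the rule shapes these values, so they are no result about the set. AC135310.2 had 4207 FPKM at P1 and 400.1 FPKM at P21 in bases 1 to 69 of the transcript and 398 FPKM and 618 FPKM in bases 28 to 112. The second interval had 5 alignments at P1 and a log2 difference of 0.63 (from -0.89 to 2.44). The part of the interval in these levels was not tested.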

How the data were processed

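The authors trimmed Ion Torrent reads, placed them on noncoding RNAs of Ensembl and deposited FPKM values from Cufflinks and Cuffdiff. The submitters' processing notes name Cuffdiff 2.2.1.3 and Rnor_6.0, and the scaling between libraries is not stated. Aligner options and the treatment of reads with several places are not given in the sources used here. The deposited FPKM of a feature at an age was the same in all 21 pairs of ages, so 1 value was used. Columns with fold changes, test statistics, p-values, q-values and significance calls of Cuffdiff were not used.

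Members and lists were chosen with earlier results of these data known. Named members were the 10 highest by mean FPKM, the 10 highest by estimated alignments, the 5 largest rises and 5 largest falls from P1 to P21 among loci with at least 20 alignments that lay on the same side of P1 at P10, P15 and P21, and those in 5 of the 6 pairs within 10 kb with the most alignments. The remaining pair of the 6 is not reported here. Other named loci, the overlaps, the length groups and the groups with gaps up to 1 Mb were chosen after their values were seen.

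What an alignment adds in FPKM was read at P1 for 638 of 724 lengths, within a relative tolerance of 4e-05, and fitted between them. Later libraries were counted in steps of that amount. The pseudocount was 1 and the floor 3 alignments. Intervals of log2 differences are exact binomial (Clopper-Pearson) intervals of the ratio of alignments, with the number of alignments taken at the mean step. Shares have Wilson intervals, and medians have binomial order-statistic intervals. Alternatives were scaling to the miRNA total, which lowers each difference between P1 and P21 by a shift of 0.63, median-of-ratios scaling, pseudocounts of 0.1 and 10, a filter at 20 alignments, other membership limits and leaving out ages. Calculations used Python 3.11.15, numpy 2.4.6, pandas 2.3.3, scipy 1.17.1 and matplotlib 3.10.9.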

Additional observations from a re-analysis of the deposited data

How the results depend on the processing

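With the miRNA total as the scale, the summed difference between P21 and P1 went from -0.26 to -0.88, the highest sum was on day 3 and the lowest on day 21, and 32 loci were highest and 41 lowest at P21. The medians against P21 became 0.98 at P1, 0.72 at P3, 0.70 at P5, 0.21 at P10 and -0.083 at P15, that of P7 went from -0.12 to 0.53, and the difference of AABR07057421.1 reversed to -0.29. Median-of-ratios scaling gave a summed difference of -0.18, with the highest sum on day 7 and the lowest on day 5, a median of 0.13 at P7, and 4 in place of 7 of the 10 loci with the most alignments lowest at P7. With at least 20 alignments the summed difference was -0.17, 30 loci were 2-fold higher and 29 lower, 17 were highest at P1 and 29 at P21, 18 were lowest at P15 and 14 at P21, and the medians were 0.26 at P3 (main -0.15) and -0.42 at P7; fewer loci were counted. Without the length limit the summed difference was -0.15, 114 loci were 2-fold lower, 68 were lowest at P15 and 40 at P21, the lowest sum was on day 3, and the medians were 0.29 at P3 (main -0.15) and 0.67 at P7; more loci were counted. Without the highest locus the summed difference was -0.44. Without P1 the highest sum was on day 10, and without P15 the lowest was on day 7 and 56 loci were lowest at P21. The chromosome 6 interval added 0 loci and changed no value. Causes were not tested otherwise. No paired analysis was possible because each age has 1 library. A mean below 20 alignments was found in 109 of 183 loci.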
